A study of Mus musculus with 12 samples.

Results

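The subject is the set of genes for the proteins of the cytosolic ribosome, followed in mouse OT-1 CD8+ T cells. Members were the protein-coding genes whose identifier mapped in GENCODE mouse release M21 to a symbol of the form Rpl or Rps, a number and at most 1 of the letters a, x, y and l, together with Rpsa, Rplp0, Rplp1 and Rplp2. This rule read names only and gave 80 of the 55487 identifiers in each of the 2 count tables, 31 for the small subunit and 49 for the large one. OT-1 mice carry a transgenic T cell receptor for an ovalbumin peptide. The Female and Male groups were CD8+ T cells taken from the spleen of OT-1 mice of each sex and held for 3 days with beads against CD3 and CD28 and recombinant mouse IL2. The WT and KD groups were another batch of male OT-1 CD8+ T cells, which were electroporated and then kept in culture for 3 days. KD cells were given Cas9 together with a guide RNA against Kdm5d, a histone demethylase gene on the Y chromosome, and WT cells the guide RNA without Cas9. Each group had 3 samples, and all cells were OT-1 and grown with IL2. The age of the mice, and whether the electroporated cells also met beads, are not given in the sources used here. Because no group received Cas9 with another guide, an effect of Cas9 and an effect of reduced Kdm5d cannot be told apart. The labels do not say how many mice or cultures stand behind the samples, so the p-values measure only the spread between these samples, which may be technical.

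A ribosome has a small subunit, which decodes the mRNA, and a large subunit, which joins the amino acids. Each holds ribosomal RNA and a fixed set of proteins, most of them present once, so the proteins are needed in matched amounts. Most of the mRNAs begin with a run of pyrimidines, the 5′ terminal oligopyrimidine (TOP) motif, through which mTOR signalling and the RNA-binding protein LARP1 govern their translation and stability. T cells enlarge their pool of ribosomes when they are activated.

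The shared start of these genes was read from RefSeq promoters on GRCm38.p6, which held an entry for 60 of the 80 members. A run of at least 8 pyrimidines that opened with C lay on the sense strand within 50 bases of an annotated start in 51 of the 60 (85%), against 8645 of 27025 genes in that table (32.0%). The windows below are shown for members whose values are described further on, with the run in capitals, 5′ to 3′ on the strand of the gene.
Rps27 (chr3:90213631-90213660, minus strand): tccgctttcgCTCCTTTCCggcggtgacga
Rps27l (chr9:66946054-66946083, plus strand): cccgcctccaCTCCTCTCCactcctccccg
Rps6 (chr4:86857349-86857378, minus strand): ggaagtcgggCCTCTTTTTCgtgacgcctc
Rps15 (chr10:80292446-80292475, plus strand): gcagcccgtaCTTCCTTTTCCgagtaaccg
Rps19 (chr7:24884623-24884652, plus strand): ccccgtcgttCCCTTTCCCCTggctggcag
Rpl11 (chr4:136053360-136053389, minus strand): ggccggaagtCTCCCTCTCTCTTCCTgttc
Rpl22 (chr4:152325677-152325706, plus strand): gcccgtctgaCTCCTCCCTTTCCCgacagc
The run of Rps6 opened 1 base before the annotated start and that of Rps27 opened 2 bases before it, whereas those of Rps27l and Rpl22 opened 22 and 39 bases before it. Such a match describes the letters in the window and was not tested as a functional TOP motif.

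Total counts ran from 78748647 to 110803318 per library. Kdm5d was at 50.9 ± 2.22 CPM (counts per 1000000 on scaled libraries) in WT and 22.0 ± 0.76 in KD (SD, n = 3), lower in KD by the quasi-likelihood test (log2 fold change -1.21, SE 0.045, edgeR adjusted p 3.13e-08), and had 0 to 2 counts in the Female libraries. The 8 listed T cell markers were detected in every group and summed to between 2327 and 2791 CPM, while Cd4 was at most 0.20 CPM and the listed B cell, dendritic, myeloid, NK and erythroid markers summed to at most 6.49, 6.41, 1.67, 1.60 and 0.034 CPM. The stroma list was higher, at 29.6 to 45.5 CPM, nearly all of it from Pecam1, an adhesion molecule that T cells can also express. Among replicates, KD 2, Female 3 and WT 2 stood apart from the other libraries of their group, with a chi-square per degree of freedom of 121 and 130 in the pairs with KD 2, of 91.5 and 93.5 with Female 3, and of 97.5 and 48.3 with WT 2, while the other pairs of a group lay between 22.2 and 34.6. The counts of members called in each comparison are given with and without them, and the other counts with all libraries.

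The knockdown samples were compared first. Genes of the cytosolic ribosome were higher in KD than in WT almost throughout: 71 of the 78 tested members rose and 0 fell (edgeR adjusted p under 0.05), where 16.8% of all tested genes rose, 18.4% fell and 35.1% did either. With a log2 fold change of 1 or more also asked for, Rpl17 alone passed, against 3.96% of all tested genes. The median log2 fold change of the tested members was 0.29, a 1.22-fold difference, beside 0.012 over all tested genes. The middle 50% of the members lay between 0.20 and 0.35, and 77 of the 78 were above 0. In 70 members each KD library exceeded each WT library, against 23.2% of all tested genes. Without KD 2, 73 of 78 members rose and 0 fell, and without WT 2, 70 rose and 0 fell.

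Counted as a share of each library, the members took 3.26%, 3.30% and 3.31% of the counts in the WT libraries and 4.09%, 4.03% and 4.05% in the KD libraries. The means were 3.29% ± 0.028 and 4.06% ± 0.035 (SD, n = 3), so that every KD library lay above every WT library and the share was 1.23 times as large. As these are bulk samples, a different mix of cells and a different amount of RNA per cell cannot be told apart. The summed T cell markers were lower in KD, at 2429 to 2494 CPM against 2733 to 2791 in WT. The B cell list ran up to 5.23 CPM in KD and from 5.398 to 6.49 in WT, the myeloid list from 0.76 to 1.25 and from 1.14 to 1.67, and the dendritic list from 4.13 to 4.93 and from 6.17 to 6.41. The stroma list ran from 29.6 to 32.4 CPM in KD and from 35.7 to 37.8 in WT, and the NK list from 0.59 to 1.24 and from 1.504 to 1.60. Of these, the T cell, B cell, dendritic, stroma and NK sums did not overlap between the groups and were lower in KD. Their part in the result was not tested.

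**Figure D1:**
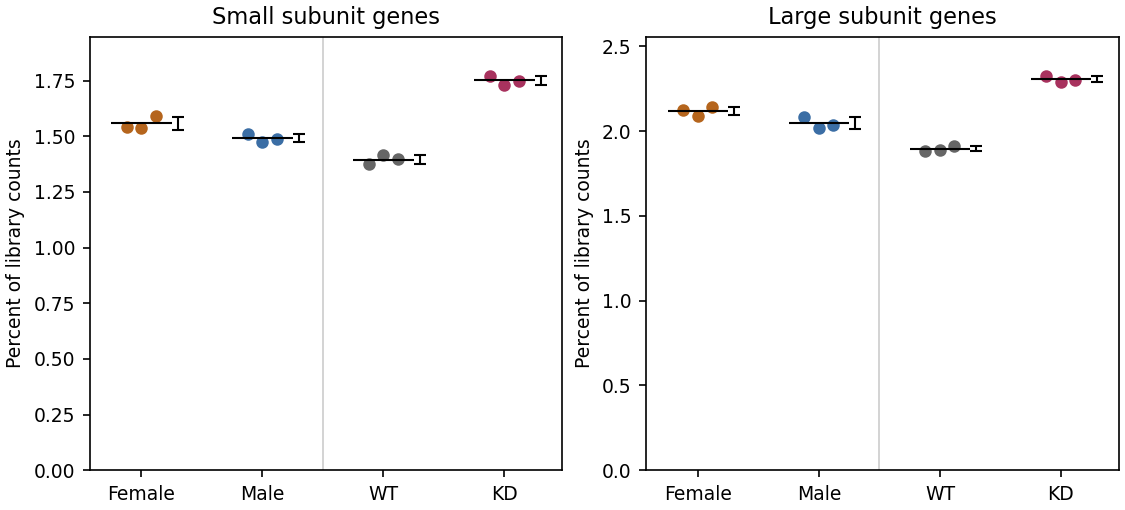
Percent of library counts that fell in small subunit genes (left) and large subunit genes (right), on axes that start at 0. Points are the 3 libraries of each group, horizontal lines their means and bars to the right the SD; the vertical line separates the 2 count tables, which were not tested against each other. KD libraries lie above WT libraries in both panels.

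Of the 31 small subunit genes, 30 rose in KD, with a median log2 fold change of 0.31. Their share of counts was 1.40% ± 0.020 in WT and 1.75% ± 0.019 in KD (SD, n = 3). Rps27, which encodes a zinc finger protein of the small subunit and had the shortest transcript of all members at 345 bases, was at 167, 153 and 167 CPM in WT and 234, 230.5 and 237 CPM in KD (log2 fold change 0.53, SE 0.033, edgeR adjusted p 1.07e-06). Every KD library of Rps27 exceeded every WT library. Rps27 lies at chr3:90212522-90213651 (ENSMUSG00000090733) on GRCm38, and 98.7% of the 31-base words of its transcript also occurred in transcripts of other genes. Reads may have been divided between it and such copies, which leaves its count uncertain. The retrotransposed copy Rps27rt rose by 0.36 on the log2 scale. Its paralog Rps27l, at chr9:66946086-66949516 (ENSMUSG00000036781), shared 20.4% of such words and had no pseudogene row. Rps27l was at 98.0, 94.3 and 99.6 CPM in WT and 133, 128 and 132 CPM in KD, again without overlap (log2 fold change 0.43, SE 0.029, edgeR adjusted p 2.06e-06).

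Rps19, at chr7:24884371-24889806 (ENSMUSG00000040952) and the gene most often mutated in Diamond-Blackfan anaemia, was at 505, 515 and 481 CPM in WT and 694, 713 and 701 CPM in KD (log2 fold change 0.49, SE 0.025, edgeR adjusted p 2.28e-07). The lowest KD library of Rps19 was well above the highest WT library. Rps15, whose protein takes part in exporting the small subunit from the nucleus, was at 367, 349.9 and 358 CPM in WT and 481, 530.0 and 479 CPM in KD (log2 fold change 0.47, SE 0.037, edgeR adjusted p 4.80e-06). Rps15a was at 305, 287 and 304 CPM in WT and 429, 397 and 411 CPM in KD (log2 fold change 0.46, SE 0.032, edgeR adjusted p 2.27e-06). The KD libraries of Rps15 and Rps15a also lay apart from the WT libraries, with Rps15 highest in KD 2 and Rps15a lowest there. Rps7 and Rps16 followed, with log2 fold changes of 0.45 and 0.42.

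Rps6, the ribosomal protein that S6 kinases phosphorylate downstream of mTOR, was close to the median of the set, at 594, 614 and 606 CPM in WT and 731, 727 and 728 CPM in KD (log2 fold change 0.27, SE 0.017, edgeR adjusted p 1.06e-06). Rpsa, the small subunit protein also known as the laminin receptor, was the member with the highest CPM, at 2147, 2216 and 2202 CPM in WT and 2523, 2534 and 2566 CPM in KD (log2 fold change 0.22, SE 0.015, edgeR adjusted p 1.70e-06). The groups of Rps6 and of Rpsa did not overlap. Rises in the lower part of the small subunit's range were in Rps26 (0.19), Rps25 (0.20) and Rps27a (0.21), whose product is made as a fusion with ubiquitin.

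Of the 47 tested large subunit genes, 41 rose in KD, with a median log2 fold change of 0.27. Their share of counts was 1.90% ± 0.016 in WT and 2.31% ± 0.016 in KD (SD, n = 3). The large to small ratio of counts was 1.37, 1.34 and 1.37 in the WT libraries and 1.31, 1.32 and 1.32 in the KD libraries. The KD values of this ratio all lay below the WT values.

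Rpl22, at chr4:152325742-152334071 (ENSMUSG00000028936), an RNA-binding protein of the large subunit that alpha-beta T cells need for their development, was at 77.8, 72.2 and 77.3 CPM in WT and 98.5, 88.5 and 102 CPM in KD (log2 fold change 0.35, SE 0.051, edgeR adjusted p 0.000441). KD 2 was the lowest KD library, and the groups did not overlap. Rpl23a (0.39), Rpl38 (0.39) and Rpl30 (0.39) were further large subunit genes in the upper part of the range.

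The stalk, which recruits the translation factors, is built from Rplp0, Rplp1 and Rplp2. Rplp0, at chr5:115559467-115563727 (ENSMUSG00000067274), was at 2022, 2034 and 2047 CPM in WT and 2442, 2428 and 2461 CPM in KD (log2 fold change 0.26, SE 0.012, edgeR adjusted p 9.53e-08). Rplp1 was at 597, 606 and 614 CPM in WT and 778, 804 and 731 CPM in KD (log2 fold change 0.35, SE 0.030, edgeR adjusted p 1.04e-05). Rplp2 was at 369.9, 356 and 365 CPM in WT and 461, 427 and 467 CPM in KD (log2 fold change 0.31, SE 0.032, edgeR adjusted p 3.11e-05). All 3 stalk genes rose without overlap between the groups.

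Rpl5 and Rpl11, whose proteins bind 5S ribosomal RNA and can inhibit Mdm2 when ribosome assembly fails, differed in their values. Rpl5 was at 665, 690.0 and 677 CPM in WT and 830.4, 811 and 815 CPM in KD (log2 fold change 0.27, SE 0.018, edgeR adjusted p 1.60e-06). Rpl11 was at 273, 258 and 283 CPM in WT and 289, 267 and 289 CPM in KD, and did not pass the threshold (log2 fold change 0.054, SE 0.039, edgeR adjusted p 0.335). The Rpl11 groups overlapped, while those of Rpl5 did not. The difference between the changes of the 2 genes was not tested.

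Of the 7 tested members that were not called in KD, Rpl11 was 1 and the others were Rps2, Rpl41, Rpl36, Rpl7a, Rpl21 and Rpl39l. Rpl41, known for encoding the smallest ribosomal protein, was at 373, 365 and 357 CPM in WT and 358, 389 and 409.6 CPM in KD (log2 fold change 0.080, SE 0.041, edgeR adjusted p 0.174). KD 1 lay among the WT libraries of Rpl41, and without that library the gene passed the threshold (log2 fold change 0.13, edgeR adjusted p 0.0072). Rpl36 was at 105, 104 and 104 CPM in WT and 121, 102 and 114 CPM in KD, with KD 2 below the WT libraries (log2 fold change 0.11, SE 0.053, edgeR adjusted p 0.141). Rpl39l was at 0.063 to 0.22 CPM in KD, too low for a change to be detectable.

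**Figure D2:**
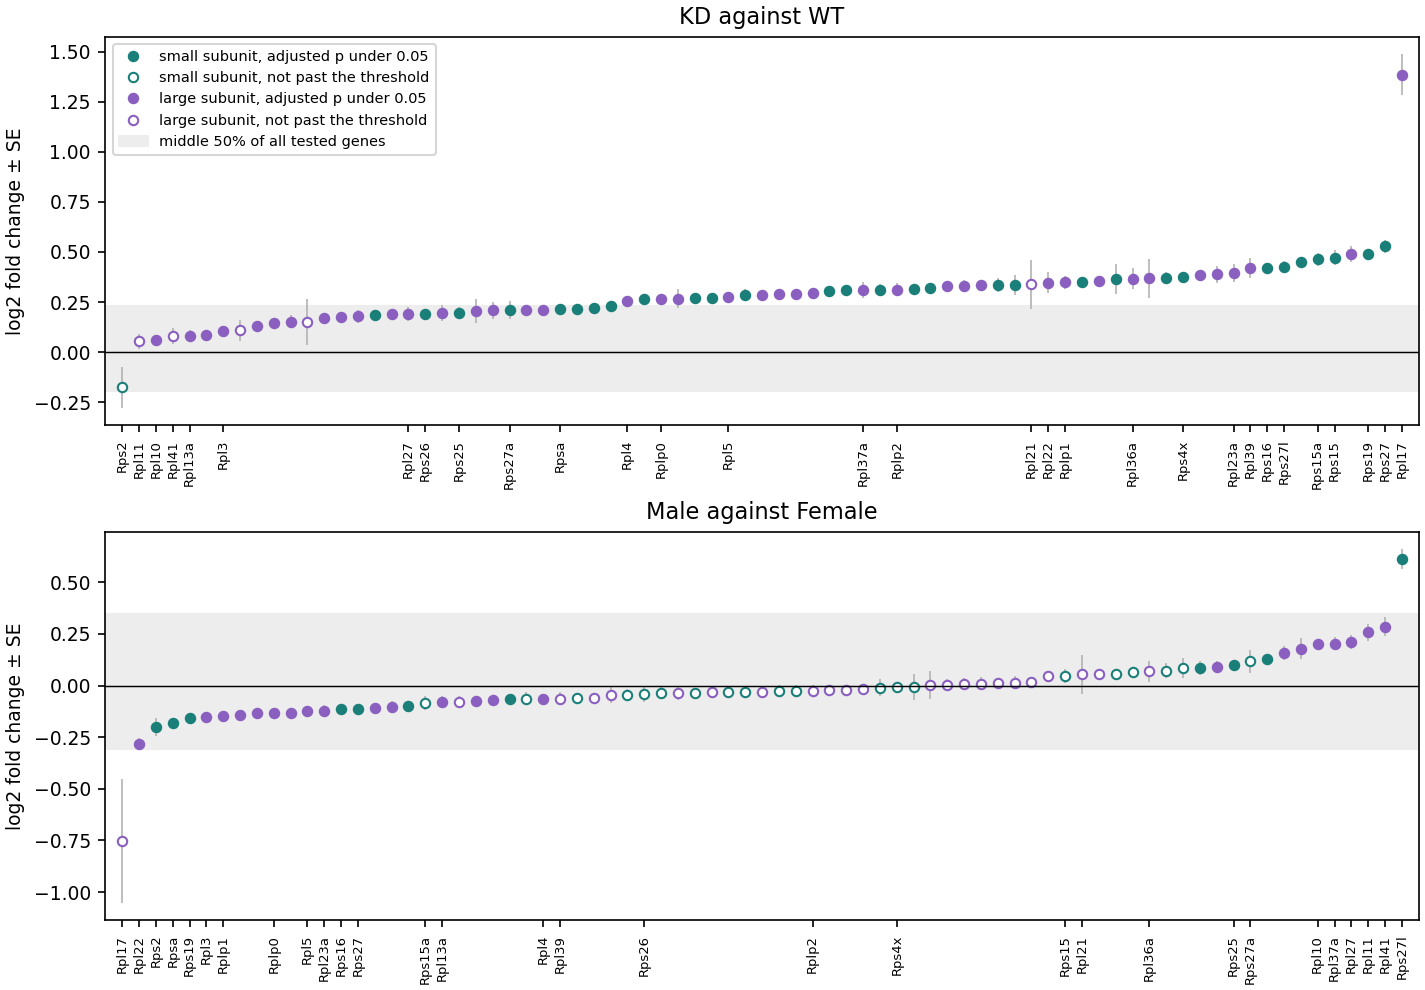
Log2 fold change ± SE (vertical axes) of every member whose mean log2 CPM was 1 or more, ordered by size along the horizontal axis with some of the genes named, for KD against WT (top) and Male against Female (bottom). Filled points passed an edgeR adjusted p of 0.05, open points did not, and the grey band holds the middle 50% of all tested genes; in the top panel all but Rps2 lie above 0.

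Several members have processed pseudogenes with near-identical sequence, and the tables hold separate rows for them. Pseudogene rows were taken by name only, as those that carry the symbol of a member followed by -ps. Pseudogenes under other names were left out, so the percentages and sums below may be incomplete. There were 297 rows under this naming for 59 of the members, and in 13 members they held over 25% of the counts of gene and such rows together. Rpl17, at chr18:74998558-75003381 (ENSMUSG00000062328), was the extreme case: 83.8% of the summed counts lay in its 11 pseudogene rows. Its own row was at 50.7, 51.4 and 52.8 CPM in WT and 149.9, 108 and 147 CPM in KD (log2 fold change 1.38, SE 0.10, edgeR adjusted p 3.18e-06), the largest fold change of any member. With the pseudogene rows added it was at 454, 455 and 464 CPM in WT and 602, 566 and 581 CPM in KD, and the log2 fold change was 0.35 with an SE of 0.023 (edgeR adjusted p 1.34e-06). The fold change of the sum lay at the upper edge of the middle 50% of the members, and in proportion its KD libraries differed less.

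Rps2, at chr17:24718116-24721929 (ENSMUSG00000044533) and the only member below 0, has 11 pseudogene rows with 25.3% of the summed counts. Its own row was at 756, 1089 and 871 CPM in WT and 838, 795 and 773 CPM in KD (log2 fold change -0.17, SE 0.10, edgeR adjusted p 0.228). WT 2 was far above the other WT libraries, and the groups overlapped. With its pseudogene rows added, Rps2 was called lower in KD, at 1104, 1411 and 1239.7 CPM in WT and 1108, 1094 and 1054 CPM in KD (log2 fold change -0.20, SE 0.068, edgeR adjusted p 0.0392). The groups of the sum still overlapped, with WT 1 below KD 1, and WT 2 was again the highest library. Without WT 1 the gene row alone was also called lower (log2 fold change -0.29, edgeR adjusted p 0.019), and without WT 2 it stood at -0.019 (edgeR adjusted p 0.84).

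Rpl7a, with 60.4% of its summed counts in 13 pseudogene rows, was at 100.2, 99.5 and 102 CPM in WT and 95.5, 139 and 99.7 CPM in KD (log2 fold change 0.15, SE 0.11, edgeR adjusted p 0.362). KD 2 alone was high. With the pseudogene rows its log2 fold change was 0.069 (edgeR adjusted p 0.183), still not past the threshold. Rpl21 was at 15.9, 22.4 and 22.7 CPM in WT and 26.7, 23.3 and 27.0 CPM in KD (log2 fold change 0.34, SE 0.12, edgeR adjusted p 0.0529), with WT 1 lowest and no overlap. With its 15 pseudogene rows, which held 58.5% of the summed counts, Rpl21 was higher in KD (log2 fold change 0.40, edgeR adjusted p 5.92e-05).

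**Figure D3:**
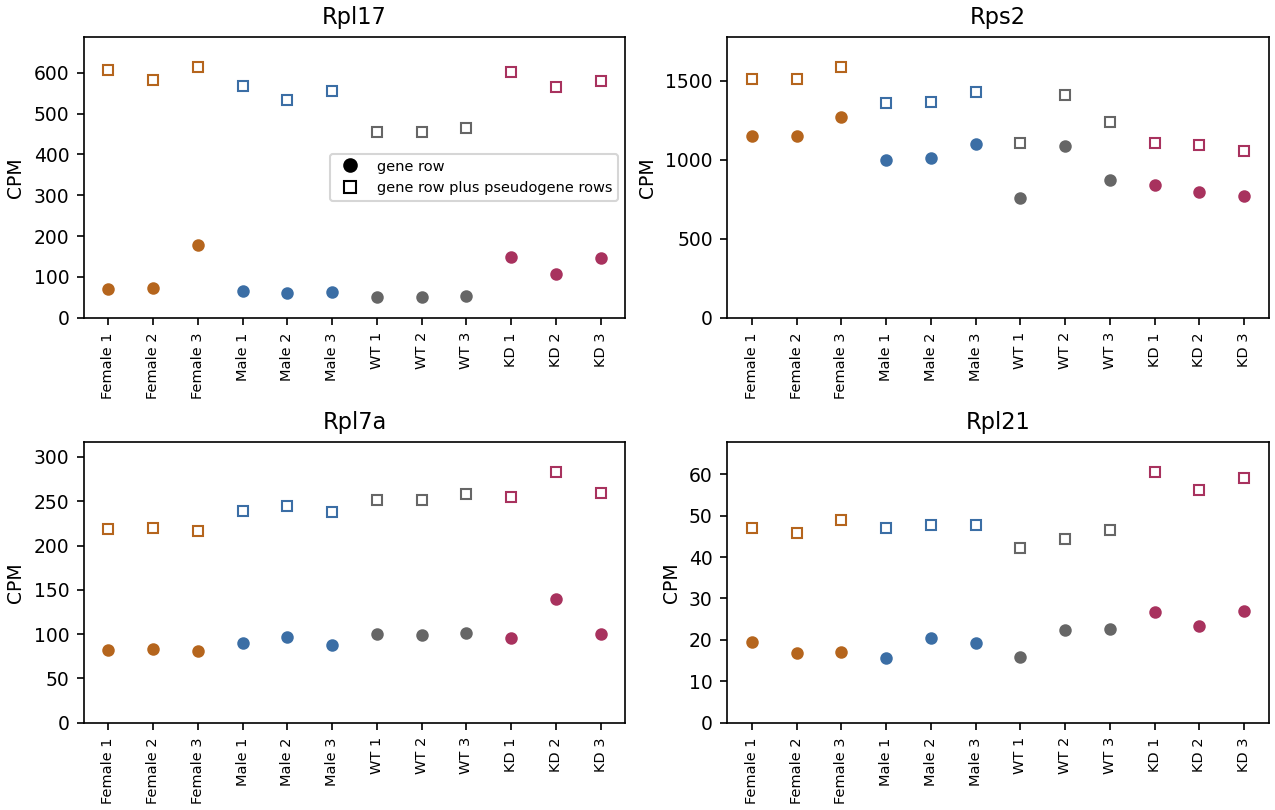
CPM (vertical axes, from 0) of Rpl17, Rps2, Rpl7a and Rpl21 in each of the 12 libraries, for the row of the gene (filled circles) and for the gene with its pseudogene rows added (open squares). The coefficient of variation is smaller in the sums in every group but WT for Rpl7a: Female 3 stands out for Rpl17 and KD 2 for Rpl7a in the gene rows, much less so in the sums.

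Length, shared sequence and pseudogene rows were set beside the rise in KD. The 13 members with a transcript under 500 bases had a median log2 fold change of 0.33 and 12 rose, and of the 65 longer ones 59 rose, with a median of 0.27. Over all protein-coding genes with a transcript under 500 bases, the 13 members included, the median was 0.022, and 31 of 160 rose. Of the 49 members that shared over 50% of their 31-base words with other genes 44 rose, and of the 29 that shared less 27 rose. Of the 19 tested members without a pseudogene row under the -ps naming 16 rose, with a median of 0.29. This group is not free of pseudogenes: for Rpl24, 2 annotated pseudogenes shared at least 50% of its 31-base words. Across 77 members the fold change had a Spearman correlation of -0.13 with transcript length, -0.24 with coding length and -0.13 with the level per length. With the percent of shared 31-base words it was -0.20, and with the percent of G and C -0.12. These values are a description, since the members share the same 6 libraries.

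All 4 X-linked members rose in KD. Rps4x, whose human counterpart also has a copy on the Y chromosome, was at 867, 862 and 858 CPM in WT and 1143, 1097 and 1118 CPM in KD (log2 fold change 0.38, SE 0.017, edgeR adjusted p 1.15e-07). Rpl10, which joins the large subunit late in its maturation, was at 658, 663 and 661 CPM in WT and 695, 675 and 698 CPM in KD, a small rise (log2 fold change 0.061, SE 0.017, edgeR adjusted p 0.0194). The groups of both genes did not overlap, but Rpl10 lost its call when KD 1, KD 3, WT 1 or WT 3 was left out, with edgeR adjusted p-values from 0.065 to 0.085. Rpl36a rose by 0.37 and Rpl39, a small protein lining the exit tunnel, by 0.42 on the log2 scale (edgeR adjusted p 0.000255 and 9.17e-05). Pseudogene rows held 43.7% of the summed counts of Rpl36a, and with them added its log2 fold change was 0.28 (edgeR adjusted p 0.000216).

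Male and Female cells were compared next. Here the members changed in either direction: 12 of the 77 tested members were higher in Male, 22 were lower and 43 did not pass the threshold, and the split turned to 22 higher and 14 lower when only protein-coding genes entered the fit and its scaling. Of all tested genes 23.5% were higher, 26.3% lower and 49.8% either. None of the members passed with a log2 fold change of 1 or more in size, against 7.28% of all tested genes. The median log2 fold change was -0.031 for the 31 small subunit genes and -0.028 for the 46 tested large subunit genes, beside 0.011 over all tested genes, and became 0.023 and 0.026 with protein-coding genes alone. In 12 members every Male library was above every Female library and in 24 every one was below, against 28.6% and 29.7% of all tested genes. Without Female 3, 11 of 78 members were higher and 21 lower.

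By subunit, 4 small and 8 large subunit genes were higher in Male, and 7 small and 15 large ones were lower, under the scaling on all genes. The members took 3.67%, 3.63% and 3.73% of the counts in the Female libraries and 3.60%, 3.49% and 3.53% in the Male ones. The means were 3.68% ± 0.053 and 3.54% ± 0.053 (SD, n = 3), with no overlap and a ratio of 0.963. The summed T cell markers overlapped, at 2337 to 2367 CPM in Female and 2327 to 2362 in Male. The stroma list (43.5 to 45.5 CPM in Female, 39.2 to 40.6 in Male) and the dendritic list (3.41 to 4.22 in Female, 2.495 to 3.19 in Male) were lower in Male without overlap. The NK list was higher there, at 0.17 to 0.46 CPM in Female and 0.49 to 0.53 in Male. Their part in the sex comparison was not tested.

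The largest rise in Male was in Rps27l, known as a p53 target as well as a ribosomal protein. It was at 38.5, 41.6 and 37.2 CPM in Female and 63.0, 58.1 and 58.0 CPM in Male (log2 fold change 0.61, SE 0.048, edgeR adjusted p 2.06e-06). Every Male library was above every Female library, and over all alternatives its log2 fold change stayed between 0.47 and 0.66. Its paralog Rps27 went the other way, at 175, 169.6 and 166 CPM in Female and 157, 155 and 160.1 CPM in Male (log2 fold change -0.11, SE 0.026, edgeR adjusted p 0.00389). The groups of Rps27 did not overlap, but the call was lost with protein-coding genes alone (log2 fold change -0.060, edgeR adjusted p 0.057).

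Of the 12 higher members, 8 were of the large subunit. Rpl41 was at 353, 364 and 312 CPM in Female and 415, 418 and 421 CPM in Male (log2 fold change 0.28, SE 0.046, edgeR adjusted p 0.000439), with no overlap and Female 3 lowest. Rpl11 was at 264, 247 and 275 CPM in Female and 323, 298 and 318 CPM in Male (log2 fold change 0.26, SE 0.041, edgeR adjusted p 0.000393), again with no overlap. Rpl27 rose by 0.21 and Rpl37a by 0.20 on the log2 scale. Of the small subunit, Rps25 rose by 0.099, but with the trend on transcript length removed its value was -0.040.

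Rpl22 had the lowest called value, at 119.5, 120.2 and 119 CPM in Female and 96.0, 97.7 and 101 CPM in Male (log2 fold change -0.28, SE 0.026, edgeR adjusted p 7.36e-06). Its Female libraries were close together, all above the Male ones. Rpsa was at 2778, 2824 and 2829 CPM in Female and 2530.3, 2425 and 2477 CPM in Male (log2 fold change -0.18, SE 0.015, edgeR adjusted p 3.36e-06). Rps2 was at 1148, 1153 and 1271 CPM in Female and 996, 1009 and 1102 CPM in Male (log2 fold change -0.20, SE 0.045, edgeR adjusted p 0.00347). Both fell without overlap, as did Rps19 (log2 fold change -0.16) and Rpl3 (-0.15), whose protein sits near the peptidyl transferase centre. The call of Rps2 was lost in a fit of all 12 libraries (edgeR adjusted p 0.065).

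Of the stalk genes, Rplp0 fell, at 2281, 2302 and 2278 CPM in Female and 2139, 2049 and 2061 CPM in Male (log2 fold change -0.13, SE 0.016, edgeR adjusted p 4.59e-05). Rplp1 also fell, at 755, 721 and 733 CPM in Female and 667, 666 and 664 CPM in Male (log2 fold change -0.15, SE 0.019, edgeR adjusted p 8.51e-05). Rplp2 did not pass the threshold, with a log2 fold change of -0.025 that became 0.029 with protein-coding genes alone. Rpl5 fell by 0.12 on the log2 scale (edgeR adjusted p 0.000178).

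Among the X-linked members, Rpl10 was higher in Male, at 496, 484 and 498 CPM in Female and 581, 565 and 553 CPM in Male (log2 fold change 0.20, SE 0.021, edgeR adjusted p 2.08e-05). Every Male library of Rpl10 was above every Female library. Rps4x was at 857, 848 and 876 CPM in Female and 884, 845 and 837 CPM in Male, with overlapping groups (log2 fold change -0.0088, SE 0.022, edgeR adjusted p 0.778). Rpl36a had a log2 fold change of 0.069 and Rpl39 of -0.063, neither past the threshold (edgeR adjusted p 0.310 and 0.116).

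**Figure D4:**
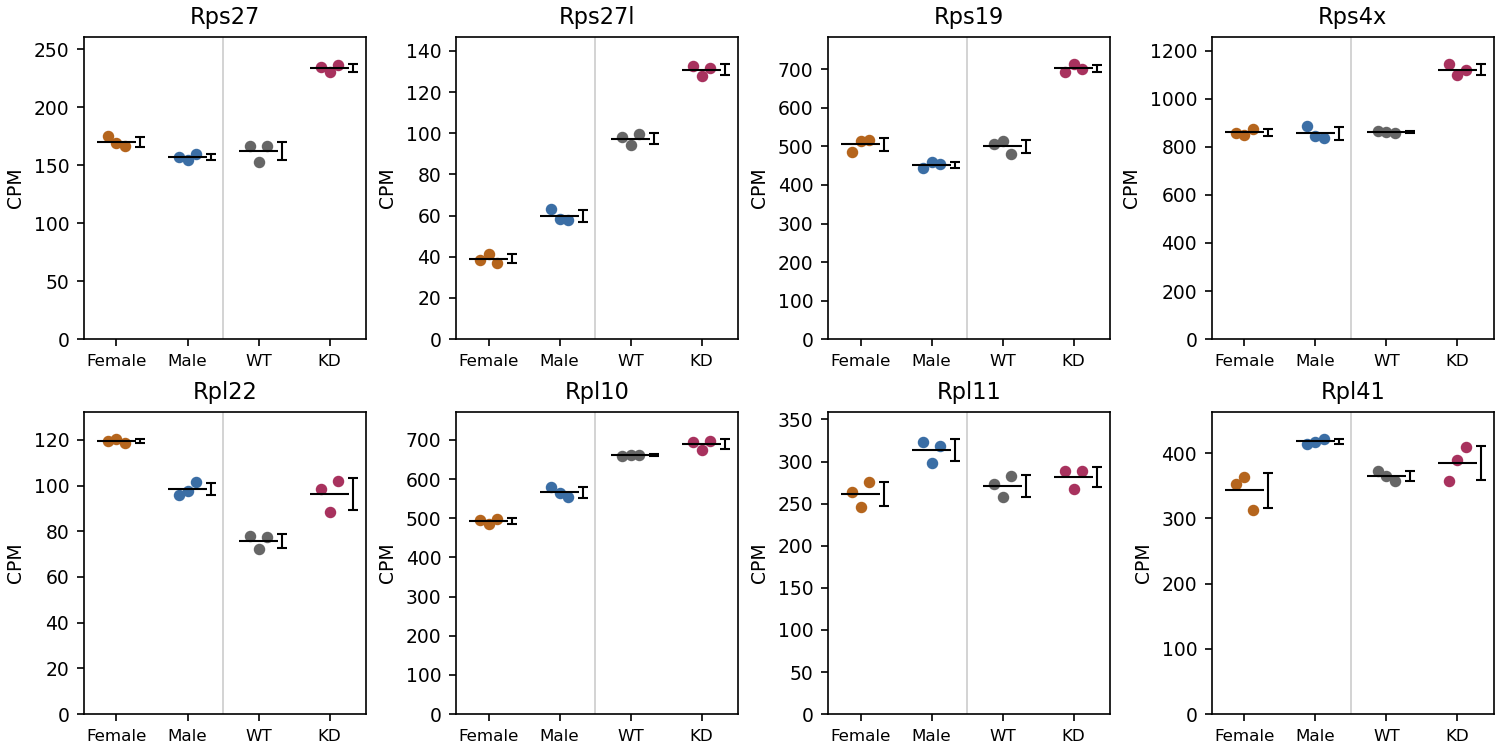
CPM (vertical axes, from 0) of 8 members in the 3 libraries of each group (points), with the group mean (line) and SD (bar to the right); the vertical line separates the 2 count tables. Rps27, Rps27l, Rps19, Rps4x and Rpl22 are higher in KD than in WT in every library, while Rpl11 and Rpl41 overlap there and are higher in Male than in Female.

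Rpl17 had the most negative value of the sex comparison without passing the threshold. Its row was at 69.3, 72.5 and 178 CPM in Female and 66.1, 60.2 and 64.0 CPM in Male (log2 fold change -0.75, SE 0.30, edgeR adjusted p 0.0617), and Female 3 was far above the other Female libraries. Without Female 3 the log2 fold change was -0.16 (edgeR adjusted p 0.013). With the pseudogene rows added Rpl17 was at 606, 582 and 615 CPM in Female and 569, 534 and 555 CPM in Male, a fall of 0.12 on the log2 scale (SE 0.027, edgeR adjusted p 0.00353). In the sums Female 3 no longer stood apart.

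Transcript length was set beside the sex comparison. Over all tested genes, the log2 fold change of Male against Female had a Spearman correlation of -0.20 with transcript length, and the median transcript was 768 bases in the members against 2731 in tested protein-coding genes. At the lengths of the members this trend had a median of 0.13 on the log2 scale in the sex comparison and 0.034 in the knockdown comparison. With the trend removed, the medians in Male against Female were -0.16 for small and -0.14 for large subunit genes, and in KD against WT that of the small subunit genes was 0.27. The 13 members with a transcript under 500 bases had a median of -0.027 in the sex comparison, and 0 were higher and 3 lower. Over all protein-coding genes with a transcript under 500 bases, the 13 members included, the median was 0.045, with 39 of 157 higher (24.8%) and 38 lower (24.2%).

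Set side by side, 30 of the 77 members with a test in each comparison passed each time. Of these, 21 were lower in Male and higher in KD, and 9 were higher in both, under the scaling on all genes. As 0 tested members were called lower in KD, this split follows the 22 lower and 12 higher members of the sex comparison. Over the 19529 genes with a test in each, 25.7% passed each time, 6.82% being lower in Male and higher in KD and 4.92% higher in both. Rpl22, Rpsa, Rps19, Rplp0, Rplp1 and Rpl5 were among the first, and Rps27l, Rpl10, Rpl27, Rpl37a and Rps25 among the second. Across the 77 members the fold changes had a Spearman correlation of -0.21, beside -0.082 over 19529 genes, as a description in which the members of a comparison share its 6 libraries. The Pearson correlation of -0.46 rested on Rpl17 and Rps27l, and was -0.23 without them. No sample was shared between the comparisons.

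**Figure D5:**
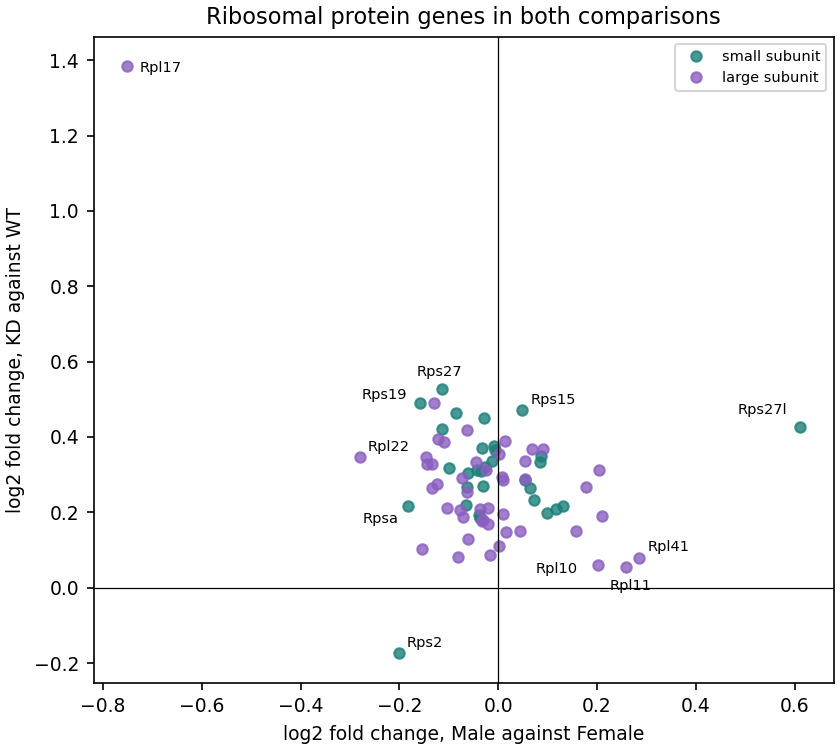
Log2 fold change of each of the 77 members tested in both comparisons, Male against Female on the horizontal axis and KD against WT on the vertical axis; each point is a gene, coloured by subunit. All but Rps2 lie above 0 on the vertical axis, while they scatter on either side of 0 on the horizontal one; Rpl17 and Rps27l lie far from the rest.

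Genes around the set were read from lists. Of 8 ribosomal genes outside the naming pattern, 5 rose and 1 fell in KD, with a median of 0.21. By comparison, 16.8% of all tested genes rose and 18.4% fell. Rack1, a scaffold protein of the small subunit, rose by 0.30, Fau, whose product is made as a ubiquitin-like fusion, by 0.17, and Rps3a1 by 0.26 on the log2 scale. Rpl22l1, the paralog of Rpl22, fell by 0.53, from 68.7 ± 1.78 to 47.7 ± 3.68 CPM (SD, n = 3, edgeR adjusted p 2.49e-05), while Rpl22 rose. In Male against Female 2 of the 8 were higher and 2 lower, beside 23.5% and 26.3% of all tested genes.

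Of 13 other mRNAs and host RNAs with a TOP motif, 9 rose and 1 fell in KD, with a median of 0.25. Again, 16.8% of all tested genes rose and 18.4% fell. Tpt1, a translationally controlled growth gene, rose by 0.44, Npm1 by 0.25 and Gas5 by 0.28 on the log2 scale, and Btf3 fell by 0.12. In Male against Female 4 of the 13 were higher and 5 lower, beside 23.5% and 26.3% of all tested genes. The snoRNA hosts Snhg1, Snhg5 and Snhg12 fell by 1.11, 1.11 and 1.05 there. In KD the same 3 hosts rose by 0.25, 0.36 and 0.59.

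Of 15 regulators of TOP mRNAs, 2 rose and 4 fell in KD, beside 16.8% and 18.4% of all tested genes. Larp1, which binds the TOP motif, fell by 0.34 (edgeR adjusted p 2.77e-07), from 964 ± 15.3 to 759 ± 11.7 CPM (SD, n = 3). Larp1 was higher in Male than in Female by 0.33 (edgeR adjusted p 2.15e-07). Rptor, the substrate adaptor of mTORC1, rose in KD by 0.27.

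Other parts of the translation machinery are set against the 16.8% of all tested genes that rose and the 18.4% that fell in KD. Of 7 elongation factor genes 4 rose and 1 fell: Eef1b2 rose by 0.30 and Eef1a1 by 0.15, and Eef2, the translocation factor, fell by 0.27. Of 36 initiation factor genes 11 rose and 5 fell, with a median of 0.018. Of 14 chaperones and maturation factors of the subunits 3 rose and 3 fell, among them Heatr3, which helps import Rpl5, up by 0.29. Of 78 mitochondrial ribosomal protein genes 17 rose and 10 fell, with a median of 0.021, beside 71 of 78 tested in the cytosolic set.

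The same groups were read in Male against Female, where 23.5% of all tested genes were higher and 26.3% lower, under the scaling on all genes. Mitochondrial ribosomal protein genes were higher in 49 of 78 and lower in 4, with a median of 0.21, initiation factors in 22 of 36 and 7, and chaperones and maturation factors in 9 of 14 and 4. Elongation factors were higher in 3 of 7 and lower in 3, and TOP regulators in 6 of 15 and 6. The mitochondrial set took 0.205% ± 0.0017 of counts in Female and 0.234% ± 0.0012 in Male (SD, n = 3), and the cytosolic to mitochondrial ratio was 17.9 ± 0.16 and 15.2 ± 0.17. In WT and KD this ratio was 13.6 ± 0.065 and 16.2 ± 0.033.

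Levels were compared between members per length, as counts per kilobase of the coding transcript scaled to 1000000 over all genes (TPM). The 77 members with at least 100 counts in every library ran from 40.3 TPM for Rpl21 to 2866 TPM for Rplp0, with a median of 885 and a highest to lowest ratio of 71.0. These are means over the 12 libraries. The highest after Rplp0 were Rpsa at 2750.3, Rplp1 at 2447 and Rpl4 at 1876 TPM. In Female, Rpsa at 2976 ± 96.9 and Rplp0 at 2851 ± 77.1 TPM had overlapping SD ranges (n = 3), as they did in Male at 2665 ± 60.3 and 2639 ± 63.9 TPM, so Rplp0 led in WT and KD only. Low values of Rpl21, Rps15a and Rpl7a go with pseudogene rows or, for Rps15a, with an annotated transcript of 5130 bases. With the merged exon length the ratio was 229, so these levels depend on the length taken.

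The testis and muscle paralogs were near or at 0. Rpl10l, a testis form, had 0 counts in every library, and Rpl3l, a muscle form, had 55 counts over all 12 libraries. Rpl39l, another testis form, had 139. These 3 account for the members outside 1 or both tests.

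Replicates of most members lay close together. The median coefficient of variation over 77 members was 2.54% in Female, 2.57% in Male, 1.88% in WT and 3.07% in KD. The widest were Rpl17 in Female at 58.1%, Rpl21 in Male at 13.2% and in WT at 19.0%, and Rpl7a in KD at 21.7%, all with most of their summed counts in pseudogene rows. Above 10% there was 1 member in Female, 1 in Male, 2 in WT and 5 in KD.

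Members share features of their genes. They lie on many chromosomes, with 14 of the 80 on chromosome 7. A snoRNA gene lies inside 29 of the 78 members tested in KD against WT (37.2%), against 205 of 13239 tested protein-coding genes (1.55%). Under the scaling on all genes, the 29 hosts had a median of -0.063 in Male against Female, with 3 higher and 14 lower. The other 48 tested members had a median of -0.018 there, with 9 higher and 8 lower. Of all tested genes 23.5% were higher and 26.3% lower. The difference between hosts and other members was not tested. In KD against WT the medians were 0.29 and 0.29, with 26 of 29 and 45 of 49 higher, beside 16.8% of all tested genes. The ETS core CCGGAA, read on both strands from 250 bases before to 50 after the start, was in 33 of 60 member promoters (55%) against 16.7% of all genes, and the YY1 core ATGGCG in 19 (31.7%) against 10.2%. The E-box CACGTG, which reads alike on both strands, was in 6 (10%) against 8.09% and TATAAA in 6 (10%) against 15.7%. Members with a pyrimidine run rose in KD in 45 of 50 and members without one in 8 of 8, with medians of 0.29 and 0.27.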

How the data were processed

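Total RNA of the 12 samples was sequenced after ribosomal RNA removal, per the labels' protocols. The authors deposited 2 tables of gene counts, Female with Male and WT with KD. The submitters' processing notes name bcl2fastq 2.20.0, HISAT2, StringTie, DESeq2 and mm10, while the annotation, the use of strand and the making of the counts are not given in the sources used here. Symbols, biotypes and lengths came from GENCODE M21 and matched 55227 identifiers.

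For each comparison, its 6 libraries alone entered edgeR 4.0.16 (R 4.3.3): filterByExpr, TMM factors, quasi-likelihood test and Benjamini-Hochberg adjustment over all tested genes, with a threshold of 0.05. The SE was taken from the fold change and the F statistic. The tables form separate batches, so Female and Male were not tested against WT and KD. The script was tested on simulated data, with 100 genes changed at each size and no change planted in the others. In Male against Female (19767 genes) it recovered 92% of planted log2 changes of 1 and 51% of those of 0.3, with 6.54% of calls false. In KD against WT (19950 genes) it recovered 88% and 39%, with 11.2% of calls false. Far fewer genes changed there than were called in the data, so these rates need not hold for the members.

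Members and gene lists were chosen with earlier results of these data known. Library values were given for Rpsa, the stalk genes, X-linked genes, Rpl5, Rpl11, paralogs, and the 4 members at each end by fold change or level per length, of which some genes are not reported here. Rps6 and Rpl36 were added after their values were seen. In other lists, at most 5 genes by smallest p in a comparison were named, besides single genes that a count referred to. Alternatives covered scaling (DESeq2 1.42.0 size factors, upper quartile, TMM without members), filters, DESeq2 and limma 3.58.1 tests, replicate number, left-out libraries, protein-coding genes alone, added pseudogene rows and transcript length.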

Additional observations from a re-analysis of the deposited data

How the results depend on the processing

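In KD against WT, the count of members higher stayed between 68 and 73 when 1 library at a time was left out, and 0 or 1 was lower. The medians ran from 0.30 to 0.32 for the small and from 0.26 to 0.27 for the large subunit, and the share of counts rose by 0.746 to 0.781 percentage points. The 1 lower member was Rps2, without WT 1 and with pseudogene counts added. The small subunit median was 0.34 with upper-quartile factors and 0.27 without the length trend. The share difference was 0.898 points of protein-coding counts and 0.810 points with pseudogene rows. Over all genes, 7171 were called, 6073 to 6685 without 1 library, and 808 also differed by 1 or more on the log2 scale.

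In Male against Female, protein-coding genes alone gave 22 members higher and 14 lower, with medians of 0.023 and 0.026 for the small and large subunits. Without the length trend these medians were -0.16 and -0.14. Leaving out 1 library gave 9 to 14 members higher, 20 to 29 lower and 9190 to 9399 genes called. With all libraries 10067 were called and 1471 of them also differed by 1 or more on the log2 scale. Among 61 single-gene results with 1097 alternative values, 12 values changed sign, 19 lost and 28 gained a call. All 12 were in this comparison. Without the length trend they were Rpl21 (-0.069), Rpl36a (-0.077), Rps15 (-0.097), Rps15a (0.035), Rps25 (-0.040) and Rps27a (-0.020). With protein-coding genes alone they were Rplp2 (0.029), Rps26 (0.014) and Rps4x (0.045). With 1 library left out, Rpl21 ran from -0.032 to 0.15 and Rps4x from -0.040 to 0.0058. The cause was not tested. The ratio of highest to lowest level was 228.7 with merged exons and 71.1 with the shortest coding transcript, an alternative chosen after seeing the data.

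With the replicate number as a replicate block, 9740 genes and 16 higher and 26 lower members were called in Male against Female, and 6688 genes and 71 higher members in KD against WT. Samples that share a number had mean correlations of 0.0053 and -0.0080 in their deviations, against -0.0026 and 0.0040 for samples that do not. These means do not show whether samples with the same number were handled together. With the block, Rps15a (edgeR adjusted p 0.0080) and Rps27a (edgeR adjusted p 0.015) were called in Male against Female, which they were not without it. Intervals from counting were not given, since molecules were not tagged.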
